A study of Mus musculus with 12 samples.

Results

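This account concerns 10 genes of the endothelium and of capillary growth, *Kdr*, *Flt1*, *Tek*, *Tie1*, *Eng*, *Pecam1*, *Cdh5*, *Esam*, *Vegfa* and *Vegfb*, in skeletal muscle of *Cox6a2*-/- (KO) and WT mice. They were chosen by name, and each had 1 probe set that carries its symbol alone. They are 10 of the 19938 genes measured. *Cox6a2* encodes a subunit of cytochrome c oxidase found in heart and skeletal muscle. The 12 arrays fall into 4 groups of 3: KO diaphragm, arrays labelled WT diaphragm, KO gastrocnemius and WT gastrocnemius. All mice were C57Bl6 males aged 10 to 12 weeks, and the only stated genetic difference was the loss of *Cox6a2*. The controls were bought C57BL/6J animals matched for age and sex and are not described as littermates, so that the knockout and the origin of the mice cannot be told apart. Neither the labels nor the methods say whether both muscles came from the same animals. Replicates are labelled as biological, with no further statement of their source.

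The endothelium lines every vessel, and in skeletal muscle most of it lies in capillaries that run along the fibers. Vascular endothelial growth factors bind receptor tyrosine kinases on endothelial cells and drive their division and sprouting, while the angiopoietins act through TEK on the stability of the vessel wall. PECAM1, CDH5 and ESAM hold neighbouring endothelial cells together. Muscle fibers themselves are a main source of VEGFA in this tissue, and VEGFB is abundant in heart and oxidative muscle.

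The values are log2 signals that the authors normalized with RMA, and a difference of 1 on this scale is a 2-fold difference. Groups were compared for all 19938 genes in 1 limma model with Benjamini-Hochberg adjustment, and a call means an adjusted p under 0.05. With 3 arrays a group, their number sets the precision. The signal of *Cox6a2* averaged 6.89 in KO diaphragm against 11.89 on the arrays labelled WT diaphragm, and 6.93 in KO gastrocnemius against 11.74 in WT gastrocnemius, so that genotype labels and signal match. The tissue label of 1 group goes against its markers. *Hoxc10*, a gene of hindlimb position, averaged 4.18 in KO diaphragm, against 8.68 on the arrays labelled WT diaphragm, with 8.53 in KO and 8.44 in WT gastrocnemius. *Upk3b*, a gene of the mesothelium that covers the diaphragm, averaged 9.31 in KO diaphragm, against 5.41 on the arrays labelled WT diaphragm, with 5.16 in KO and 5.49 in WT gastrocnemius. *Myh4*, the myosin of the fastest fibers, averaged 8.96 in KO diaphragm, against 13.56 on the arrays labelled WT diaphragm, with 13.64 in KO and 13.63 in WT gastrocnemius. Across the 19938 genes, Pearson correlations of the 3 arrays in doubt were 0.989 to 0.992 with WT gastrocnemius, but 0.963 to 0.975 with KO diaphragm. The wording "arrays labelled WT diaphragm" is kept for this reason. Where KO diaphragm is compared with them, an effect of the knockout and a difference between muscles cannot be told apart. The difference of means between KO diaphragm and KO gastrocnemius uses none of these arrays. Its SE and p draw on a spread pooled over all 12 arrays, these included. Values of this contrast are given beside those of the contrast with the arrays labelled WT diaphragm.

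The promoters of the members on which the comparisons turn are shown here because these genes differed by unequal amounts between KO diaphragm and the arrays labelled WT diaphragm: *Kdr* and *Vegfa* by the most, *Flt1* by the least, *Vegfb* in between. Each is the stretch of 250 bases that precedes the RefSeq transcription start, in the GRCm38.p6 build, 5′ to 3′ on the strand of the gene. Capitals mark GGAA, the core of sites for ETS factors, which endothelial genes commonly carry, and GGGCGG, the GC box, on either strand (TTCC and CCGCCC when read on the other strand), and TATAAA, the TATA box.
*Kdr*, chr5:75978456-75978705, minus strand: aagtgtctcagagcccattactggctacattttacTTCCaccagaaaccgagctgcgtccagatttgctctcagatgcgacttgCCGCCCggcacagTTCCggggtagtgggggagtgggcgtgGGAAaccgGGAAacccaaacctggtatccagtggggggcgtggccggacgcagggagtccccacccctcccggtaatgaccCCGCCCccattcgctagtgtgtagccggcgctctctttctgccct
*Flt1*, chr5:147726012-147726261, minus strand: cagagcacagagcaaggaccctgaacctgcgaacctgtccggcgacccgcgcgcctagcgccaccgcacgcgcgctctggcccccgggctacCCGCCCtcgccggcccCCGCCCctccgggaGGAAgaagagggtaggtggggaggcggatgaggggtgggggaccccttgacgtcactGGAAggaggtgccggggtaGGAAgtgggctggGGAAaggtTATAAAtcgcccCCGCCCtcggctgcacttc
*Vegfa*, chr17:46032378-46032627, minus strand: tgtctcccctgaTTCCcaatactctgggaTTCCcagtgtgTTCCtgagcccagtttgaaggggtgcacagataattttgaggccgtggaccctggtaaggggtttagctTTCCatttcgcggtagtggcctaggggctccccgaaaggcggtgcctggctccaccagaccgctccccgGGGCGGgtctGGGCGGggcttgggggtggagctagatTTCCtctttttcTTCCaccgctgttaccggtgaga
*Vegfb*, chr19:6987652-6987901, minus strand: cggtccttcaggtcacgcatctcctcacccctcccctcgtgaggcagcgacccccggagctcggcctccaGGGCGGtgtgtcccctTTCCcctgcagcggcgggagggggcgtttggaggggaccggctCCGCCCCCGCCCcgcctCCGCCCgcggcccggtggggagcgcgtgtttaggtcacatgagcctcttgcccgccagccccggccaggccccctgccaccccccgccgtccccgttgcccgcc
For *Vegfa* the table holds 2 starts, and the first was used. The *Kdr* and *Flt1* windows lie inside the annotated genes, whose 5′ ends are at chr5:75979072 and chr5:147726438. They precede a RefSeq start there and not the outermost end of the gene. The *Tek* window, which is not printed, also reaches into its gene. Promoters were matched for 7 of the 10 genes; *Pecam1*, *Cdh5* and *Esam* were not matched. These windows held 4 ETS cores in *Kdr*, 4 in *Flt1*, 6 in *Vegfa* and 1 in *Vegfb*. *Tie1* held 7, *Eng* 3 and *Tek* 2. The core is short, and 93.4% of all 32851 promoters of this length in the table hold it. GC boxes numbered 2 in *Kdr*, 3 in *Flt1*, 2 in *Vegfa* and 4 in *Vegfb*, with none in *Tie1*, *Eng* and *Tek*, against 32.7% of all promoters with at least 1. The TATA box was found in *Flt1* only, 25 bases before the start, and in 12.4% of all promoters. The letters ACGTG on either strand, 1 form of the core of the hypoxia response element, were in none of the 7 windows. They were in 16.6% of all promoters. The other form, GCGTG, was not counted, and the printed windows of *Kdr*, *Flt1* and *Vegfb* hold it on 1 strand or the other. Sequence outside these windows was not searched. An E-box, CANNTG on either strand, was in 5 of the 7 windows and in 66.2% of all promoters. The share of G and C was 61.6% in *Kdr*, 70.4% in *Flt1*, 59.2% in *Vegfa* and 76.4% in *Vegfb*, with a median of 52.4% over all promoters. The letters are described only and were not tested against the values.

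All 10 genes had their highest mean signal in KO diaphragm. The arrays labelled WT diaphragm came second for 7 genes and KO gastrocnemius for 3, *Kdr*, *Esam* and *Vegfa*. The lowest mean was in KO gastrocnemius for 5 genes and in WT gastrocnemius for the other 5. The lowest pair of groups overlapped for all 10 genes, the next pair overlapped for 4 (*Kdr*, *Cdh5*, *Esam* and *Vegfb*), and the highest pair for *Eng* alone. No share over all genes was computed for these orders. Taken in pairs, all 3 KO diaphragm arrays lay above the arrays labelled WT diaphragm for 20.9% of all genes. They lay above those of KO gastrocnemius for 25.7%.

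**Figure D1:**
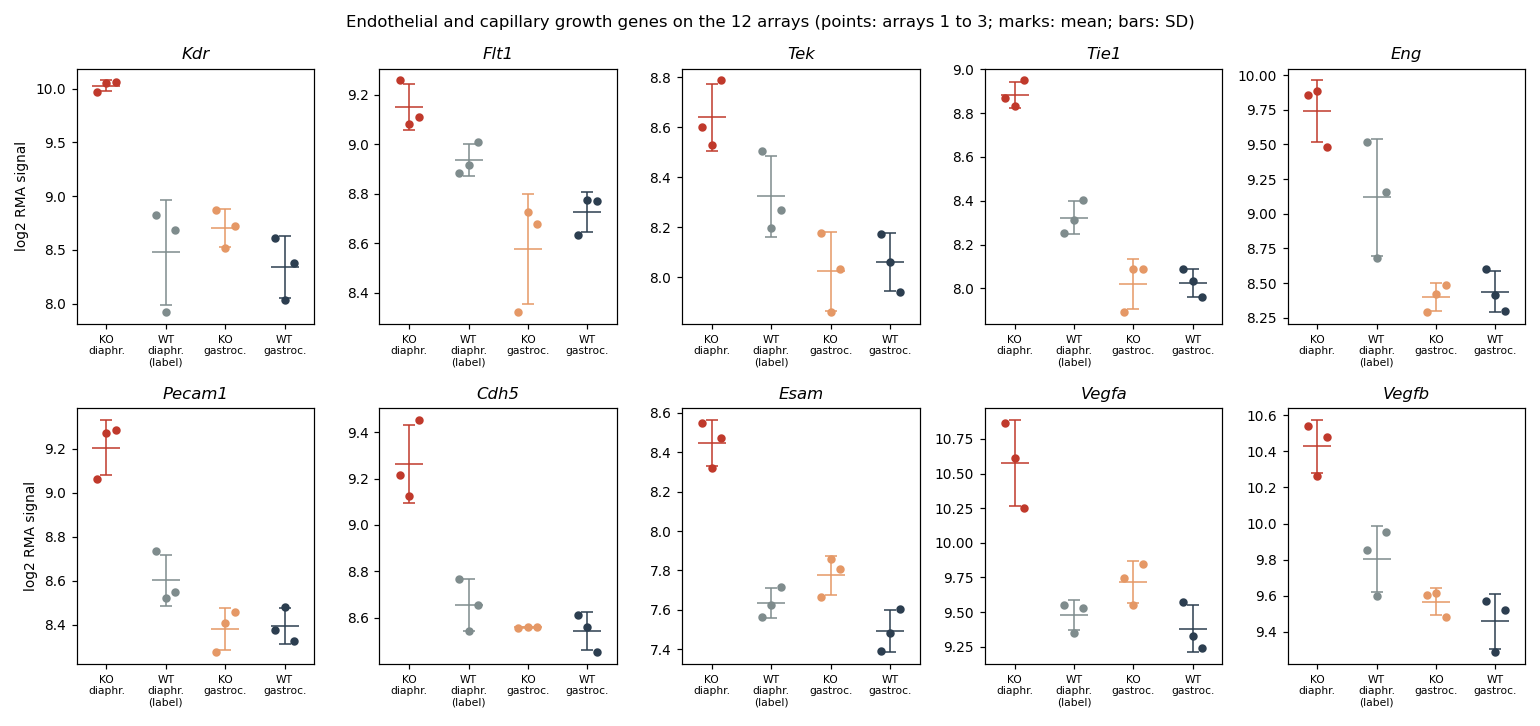
Log2 RMA signal (vertical axes, 1 panel per gene, each with its own range) on the 3 arrays of KO diaphragm, the arrays labelled WT diaphragm, KO gastrocnemius and WT gastrocnemius (horizontal axes); points are arrays, marks are means and bars are SD (n = 3). KO diaphragm is highest in every panel, and only *Eng* has KO diaphragm arrays at the level of an array labelled WT diaphragm.

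The receptors are described first. KDR is the main signalling receptor for VEGFA. The log2 signal of *Kdr* was 9.97, 10.06 and 10.06 in KO diaphragm, against 8.82, 7.92 and 8.69 on the arrays labelled WT diaphragm. In gastrocnemius it was 8.87, 8.52 and 8.72 in KO mice, against 8.61, 8.03 and 8.38 in WT mice. The KO diaphragm arrays lay close together and above all 9 others, while the other groups overlapped. *Kdr* was higher in KO diaphragm by 1.55 ± 0.20 (SE) against the arrays labelled WT diaphragm, a 2.93-fold difference with an adjusted p of 4.5e-05. Against KO gastrocnemius it was higher by 1.33 ± 0.20 (SE; adjusted p = 1.6e-04). In gastrocnemius the KO mice differed from WT by 0.36 ± 0.20 (SE; adjusted p = 0.37), with overlapping arrays. That value was 0.21 when replicate 2 of WT gastrocnemius was left out and 0.50 when its replicate 1 was.

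FLT1 binds VEGFA and VEGFB, and its soluble form holds VEGFA away from KDR. *Flt1* had a signal of 9.26, 9.08 and 9.11 in KO diaphragm, against 8.89, 8.92 and 9.01 on the arrays labelled WT diaphragm. Its gastrocnemius values were 8.32, 8.73 and 8.68 in KO mice, against 8.63, 8.77 and 8.77 in WT mice. The 3 KO diaphragm arrays lay above the other 9, by a small margin over the arrays labelled WT diaphragm. The difference from those was 0.21 ± 0.11 (SE) and was not called (adjusted p = 0.16), whereas the difference from KO gastrocnemius was 0.58 ± 0.11 (SE) and was called by limma (adjusted p = 0.0011), though not by the methods' t-test after Benjamini-Hochberg adjustment (adjusted p = 0.066). In gastrocnemius the difference of KO from WT was −0.15 ± 0.11 (SE; adjusted p = 0.51), which became −0.02 without KO gastrocnemius replicate 1 and −0.23 without KO gastrocnemius replicate 2.

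TEK is the receptor for the angiopoietins, and TIE1 is a related receptor that modulates it. *Tek* had a signal of 8.60, 8.53 and 8.79 in KO diaphragm, against 8.51, 8.20 and 8.27 on the arrays labelled WT diaphragm. For gastrocnemius, the signal was 8.18, 7.86 and 8.03 in KO mice, against 8.17, 8.06 and 7.94 in WT mice. KO diaphragm lay above the other groups, though its lowest array was close to the highest one labelled WT diaphragm. The difference between those 2 groups was 0.32 ± 0.11 (SE) and missed the threshold (adjusted p = 0.054). It passed without replicate 1 of the arrays labelled WT diaphragm, at 0.41 (adjusted p = 0.026). Against KO gastrocnemius the difference was 0.62 ± 0.11 (SE; adjusted p = 9.5e-04).

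*Tie1* had a signal of 8.87, 8.83 and 8.95 in KO diaphragm, against 8.25, 8.31 and 8.40 on the arrays labelled WT diaphragm. In gastrocnemius it was 7.89, 8.09 and 8.09 in KO mice, against 8.09, 8.03 and 7.96 in WT mice. The KO diaphragm arrays stood clear of all others, and those labelled WT diaphragm stood clear of all gastrocnemius arrays. *Tie1* was higher in KO diaphragm by 0.56 ± 0.089 (SE; adjusted p = 2.9e-04) against the arrays labelled WT diaphragm and by 0.86 ± 0.089 (SE; adjusted p = 6.6e-06) against KO gastrocnemius.

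ENG, endoglin, is a co-receptor for BMP9 and TGF-beta on endothelial cells. *Eng* had a signal of 9.85, 9.88 and 9.48 in KO diaphragm, against 9.52, 8.68 and 9.16 on the arrays labelled WT diaphragm. Its gastrocnemius values were 8.29, 8.42 and 8.49 in KO mice, against 8.60, 8.42 and 8.30 in WT mice. It was the 1 gene of the 10 whose KO diaphragm arrays overlapped those labelled WT diaphragm, and both of these groups lay above all gastrocnemius arrays. The difference between the overlapping groups was 0.62 ± 0.17 (SE; adjusted p = 0.015). It lost its call without replicate 2 of the arrays labelled WT diaphragm, at 0.40 (adjusted p = 0.063), or without replicate 2 of KO diaphragm, at 0.55 (adjusted p = 0.061). Against KO gastrocnemius *Eng* had the largest difference of the 10 genes, 1.34 ± 0.17 (SE; adjusted p = 4.5e-05).

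PECAM1, CDH5 and ESAM are adhesion proteins of the contacts between endothelial cells. *Pecam1* had a signal of 9.06, 9.27 and 9.29 in KO diaphragm, against 8.73, 8.52 and 8.55 on the arrays labelled WT diaphragm. For gastrocnemius, the signal was 8.27, 8.41 and 8.46 in KO mice, against 8.38, 8.48 and 8.32 in WT mice. KO diaphragm stood above the 9 other arrays. The difference was 0.60 ± 0.098 (SE; adjusted p = 3.5e-04) against the arrays labelled WT diaphragm and 0.83 ± 0.098 (SE; adjusted p = 2.2e-05) against KO gastrocnemius.

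*Cdh5*, which encodes VE-cadherin, had a signal of 9.21, 9.13 and 9.45 in KO diaphragm, against 8.77, 8.54 and 8.66 on the arrays labelled WT diaphragm. In gastrocnemius it was 8.56 on all 3 KO arrays, against 8.61, 8.56 and 8.45 in WT mice. KO diaphragm again stood apart, and the remaining 9 arrays shared 1 narrow range. The difference was 0.61 ± 0.099 (SE; adjusted p = 3.7e-04) against the arrays labelled WT diaphragm and 0.71 ± 0.099 (SE; adjusted p = 9.6e-05) against KO gastrocnemius.

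*Esam* had a signal of 8.55, 8.32 and 8.47 in KO diaphragm, against 7.57, 7.63 and 7.71 on the arrays labelled WT diaphragm. Its gastrocnemius values were 7.67, 7.86 and 7.81 in KO mice, against 7.39, 7.48 and 7.60 in WT mice. It was the 1 gene of the 10 whose KO arrays lay above the WT arrays in gastrocnemius too. *Esam* was higher in KO diaphragm by 0.81 ± 0.096 (SE; adjusted p = 2.4e-05) against the arrays labelled WT diaphragm and by 0.67 ± 0.096 (SE; adjusted p = 1.1e-04) against KO gastrocnemius. In gastrocnemius the difference of KO from WT was 0.28 ± 0.096 (SE), where limma's unadjusted p was 0.010 and its adjusted p = 0.17.

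VEGFA and VEGFB are secreted ligands and are not made by the endothelium alone. *Vegfa* had a signal of 10.87, 10.61 and 10.25 in KO diaphragm, against 9.55, 9.35 and 9.53 on the arrays labelled WT diaphragm. For gastrocnemius, the signal was 9.74, 9.55 and 9.85 in KO mice, against 9.57, 9.33 and 9.24 in WT mice. The KO diaphragm arrays were the most spread of the 4 groups and still above all others, and 1 KO gastrocnemius array fell within the range of WT gastrocnemius. *Vegfa* was higher in KO diaphragm by 1.10 ± 0.14 (SE), a 2.14-fold difference (adjusted p = 5.5e-05), against the arrays labelled WT diaphragm, and by 0.86 ± 0.14 (SE; adjusted p = 3.9e-04) against KO gastrocnemius. In gastrocnemius the difference of KO from WT was 0.34 ± 0.14 (SE), where limma's unadjusted p was 0.034 and its adjusted p = 0.26.

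*Vegfb* had a signal of 10.54, 10.26 and 10.48 in KO diaphragm, against 9.85, 9.60 and 9.96 on the arrays labelled WT diaphragm. In gastrocnemius it was 9.60, 9.62 and 9.48 in KO mice, against 9.57, 9.29 and 9.52 in WT mice. KO diaphragm stood apart, while KO gastrocnemius overlapped both the arrays labelled WT diaphragm and those of WT gastrocnemius. *Vegfb* was higher in KO diaphragm by 0.62 ± 0.11 (SE; adjusted p = 9.6e-04) against the arrays labelled WT diaphragm and by 0.86 ± 0.11 (SE; adjusted p = 6.2e-05) against KO gastrocnemius.

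Counted over the group, 8 of the 10 genes were called higher and 0 lower in KO diaphragm against the arrays labelled WT diaphragm, where 16.3% of all genes were called higher and 11.2% lower. The 2 genes not called were *Flt1* and *Tek*. The methods' t-test after Benjamini-Hochberg adjustment called 4, with 5.29% of all genes called higher, and left out *Kdr* (adjusted p = 0.052), *Cdh5* (0.056), *Vegfb* (0.067) and *Eng* (0.21) as well. All 3 KO arrays lay above all 3 arrays labelled WT diaphragm for 9 of the 10 genes, as they did for 20.9% of all genes. The median difference of the 10 genes was 0.62, against −0.04 for all genes. In muscle as a whole, more endothelial cells and more RNA per endothelial cell cannot be told apart.

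In KO diaphragm against KO gastrocnemius, all 10 genes were called higher and their arrays did not overlap. The differences of means leave out the arrays in doubt, though the pooled spread does not. Of all genes, 17.7% were called higher and 11.2% lower, and the arrays lay all above for 25.7%. The median difference of the 10 genes was 0.84, against 0.02 for all genes, and all 10 were also called by limma when any 1 of these 6 arrays was left out. The methods' t-test after Benjamini-Hochberg adjustment called 8, without *Flt1* (adjusted p = 0.066) and *Vegfa* (0.061), and 10% of all genes. This contrast sets 2 muscles of 1 genotype side by side and measures no effect of the knockout. It shares the KO diaphragm arrays with the contrast above, so that the values of the 2 contrasts are not independent.

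In gastrocnemius, the muscle whose tissue label was not in doubt, 0 of the 10 genes were called between KO and WT mice by limma. At an unadjusted p under 0.05, 2 were, *Esam* and *Vegfa*, both higher in KO, and 8.11% of all genes were higher at this threshold. With the methods' t-test before adjustment, *Esam* was the 1 gene of the 10 that passed, with 7.81% of all genes higher, and after adjustment none of the genes on the arrays did. Of all genes, limma called 0.406% higher. *Esam* was the 1 gene of 10 whose KO arrays all lay above the WT arrays, as was the case for 12.3% of all genes. The median difference of the 10 genes was 0.01, with 5 above and 5 below 0. The 95% confidence intervals ran from −0.06 to 0.79 for *Kdr*, from 0.03 to 0.64 for *Vegfa* and from 0.08 to 0.49 for *Esam*. For *Tie1* the interval was −0.19 to 0.19, for *Pecam1* −0.22 to 0.19 and for *Cdh5* −0.19 to 0.23. The directions of *Tek*, *Tie1*, *Eng* and *Pecam1* turned positive when arrays were centred on their medians, and that of *Cdh5* turned negative after quantile normalization.

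Between the arrays labelled WT diaphragm and those of WT gastrocnemius, all 10 differences were positive and 0 were called, whereas 4 had an unadjusted p under 0.05 in limma: *Tek*, *Tie1*, *Eng* and *Vegfb*. Of all genes, 8.48% were higher at this threshold and 0.296% were called higher. The methods' t-test passed *Flt1* and *Tie1* before adjustment, with 6.63% of all genes higher, and none after it. The arrays lay all above for 6 of the 10 genes and for 10.9% of all genes. The largest difference was that of *Eng*, 0.68 ± 0.17 (SE; adjusted p = 0.10), and the smallest that of *Vegfa*, 0.10 ± 0.14 (SE; adjusted p = 0.83). Without replicate 2 of the arrays labelled WT diaphragm, *Eng* was called, at 0.90 (adjusted p = 0.025). On that array all 8 endothelial genes (the 10 without *Vegfa* and *Vegfb*) lay below their group mean, by 0.17 on average and by 0.56 for *Kdr*.

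**Figure D2:**
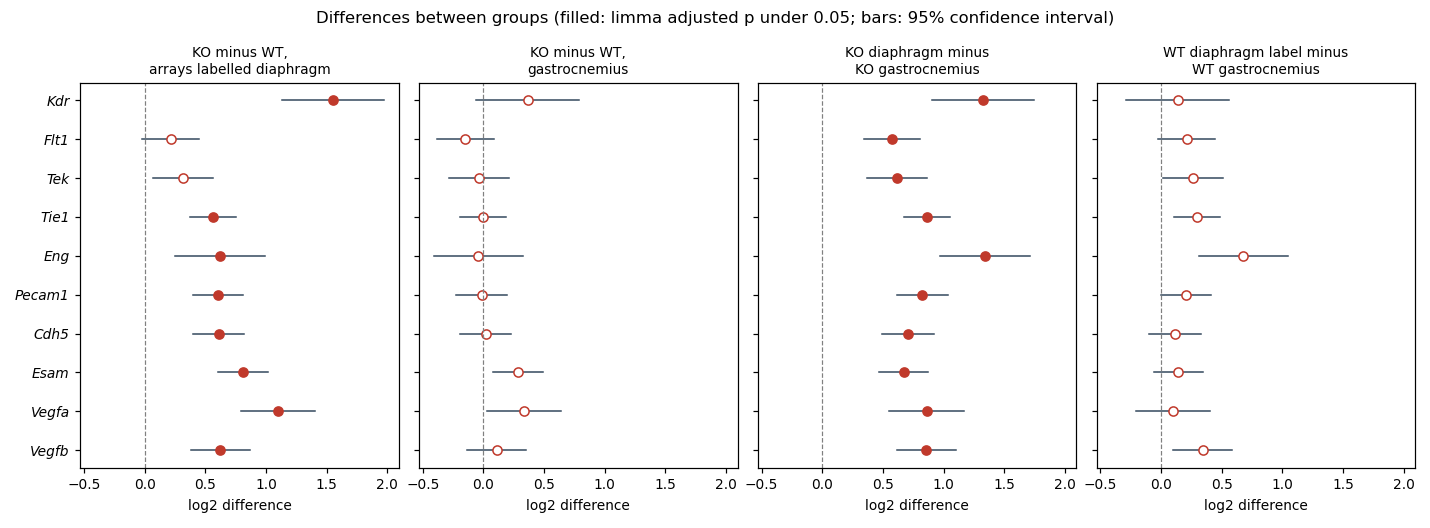
Log2 differences (horizontal axes) of the 10 genes in 4 contrasts: KO minus WT on the arrays labelled diaphragm, KO minus WT in gastrocnemius, KO diaphragm minus KO gastrocnemius, and arrays labelled WT diaphragm minus WT gastrocnemius; filled points have a limma adjusted p under 0.05 and bars are 95% confidence intervals. Both contrasts with KO diaphragm sit to the right of 0, with 8 and 10 filled points, and the other 2 contrasts have none.

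The difference between the KO minus WT values of the 2 tissue labels, the interaction, was tested in the same model and was called for 7 of the 10 genes, with 8.76% of all genes called in this direction. *Kdr* had an interaction of 1.19 ± 0.28 (SE; adjusted p = 0.0097) and *Vegfa* one of 0.76 ± 0.20 (SE; adjusted p = 0.020). *Pecam1* (0.62), *Cdh5* (0.59), *Tie1* (0.56), *Esam* (0.53) and *Vegfb* (0.52) were called as well. *Eng* had 0.66 ± 0.24 (SE; adjusted p = 0.086), *Flt1* 0.36 ± 0.15 (SE; adjusted p = 0.14) and *Tek* 0.35 ± 0.16 (SE; adjusted p = 0.18). The call of *Vegfb* was lost when any of 9 of the 12 arrays was left out (0.42 to 0.54) and that of *Vegfa* when either of 2 was (0.67 without WT gastrocnemius replicate 1 and 0.68 without KO gastrocnemius replicate 2), while *Eng* gained one without KO diaphragm replicate 3 (0.79) or without replicate 1 of the arrays labelled WT diaphragm (0.86). These values rest on the arrays in doubt.

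The genes did not move by equal amounts, which was examined by setting each against 28 other endothelial genes on the same array. The mean log2 signal of those 28 ranged from 7.87 to 7.95 in KO diaphragm, against 7.32 to 7.42 on the arrays labelled WT diaphragm, and from 7.24 to 7.37 in KO against 7.27 to 7.34 in WT gastrocnemius. After this mean was subtracted, *Kdr* still differed by 1.03 ± 0.31 (pooled SD, n = 3) between KO diaphragm and the arrays labelled WT diaphragm, *Vegfa* by 0.57 ± 0.25 and *Esam* by 0.28 ± 0.11, with all 3 KO arrays above. *Flt1* was lower by this measure, at −0.31 ± 0.10, and *Tek* too, at −0.21 ± 0.13 (−0.13 without replicate 1 of the arrays labelled WT diaphragm), with all 3 KO arrays below. The other 5 genes overlapped between these groups.

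Against KO gastrocnemius, the genes that stood above the 28 in KO diaphragm were *Eng* (0.74 ± 0.19, pooled SD, n = 3), *Kdr* (0.72 ± 0.17), *Tie1* (0.26 ± 0.057) and *Pecam1* (0.22 ± 0.077). *Kdr* was the 1 gene that did so in both contrasts, and *Flt1*, *Tek*, *Vegfa* and *Esam* overlapped here. In gastrocnemius, *Esam* was 0.29 ± 0.090 higher in KO than in WT mice relative to the 28, with no overlap, and the other 9 genes overlapped. With the median of the 28 in place of their mean, the value of *Esam* was 0.18 in gastrocnemius and 0.17 in KO diaphragm against the arrays labelled WT diaphragm, while in the second of these *Kdr* was at 0.91 and *Tek* at −0.33. Each non-overlap had an exact permutation p of 0.1 (two-sided), the smallest that 3 arrays against 3 allow, and 0.29 after Benjamini-Hochberg adjustment over the 40 values computed in this way, so that none passed.

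**Figure D3:**
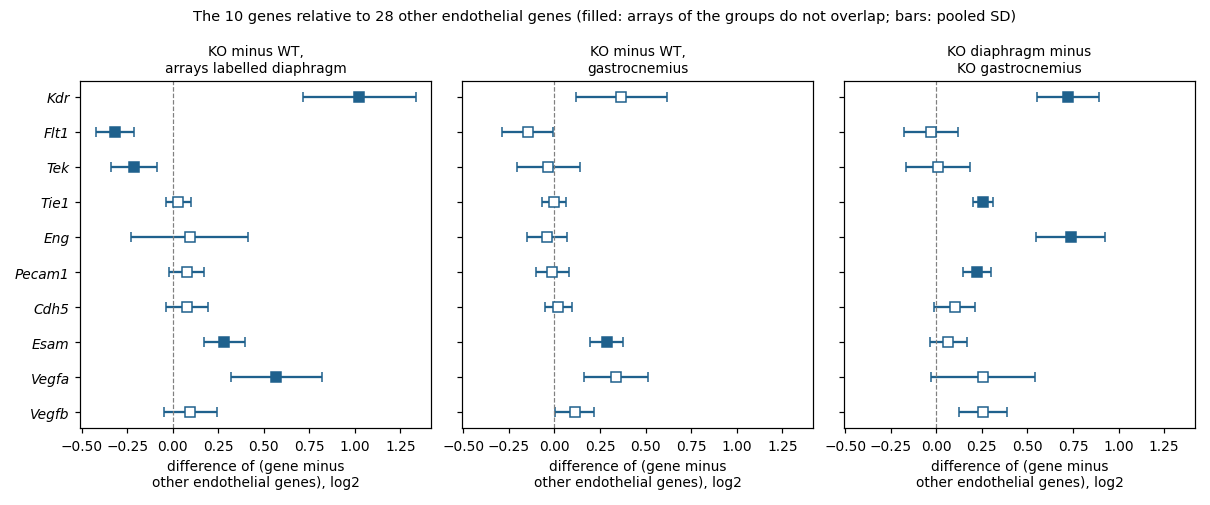
Difference between groups in the log2 signal of each gene after the mean of 28 other endothelial genes on the same array was subtracted (horizontal axes), for KO minus WT on the arrays labelled diaphragm, KO minus WT in gastrocnemius and KO diaphragm minus KO gastrocnemius; bars are the pooled SD (n = 3 each) and filled squares mark groups whose arrays do not overlap. *Kdr* lies at 1.03 and 0.72 in the outer panels, *Flt1* at −0.31 and −0.03 (0.03 for the second after quantile normalization).

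Within groups, the genes varied together only loosely. After group means were removed, the 28 pairs of the 8 endothelial genes had correlations from −0.61 to 0.81 over the 12 arrays, with a median of 0.17 and 17 above 0. *Vegfa* and *Kdr* correlated at 0.38. These arrays share the normalization, and the values are given as a description.

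The 28 other endothelial genes and the further members of the pathways are described next. Counts in this and the later lists are to be read against the shares of all genes called by limma. These were 16.3% higher and 11.2% lower in KO diaphragm against the arrays labelled WT diaphragm, and 17.7% and 11.2% against KO gastrocnemius. In gastrocnemius they were 0.406% higher and 0.186% lower in KO than in WT mice, so that short lists hold few calls there. Of the 28, which cover surface proteins, transcription factors and signalling proteins of the endothelium, 21 were called higher and 0 lower in KO diaphragm against the arrays labelled WT diaphragm (median 0.52), and 22 higher and 0 lower against KO gastrocnemius (median 0.53). In gastrocnemius 0 were called between KO and WT by limma and 4 had an unadjusted p under 0.05, as had 16.4% of all genes, with a median of −0.01. *Gimap4*, a GTPase gene of immune and endothelial cells, averaged 8.17 in KO diaphragm, against 6.42 on the arrays labelled WT diaphragm, a difference of 1.76 ± 0.13 (SE; adjusted p = 3.4e-07). *Tm4sf1*, an endothelial surface protein, was higher by 1.16 ± 0.13 (SE), *Cd34* by 1.02 ± 0.12 (SE) and the tight junction gene *Cldn5* by 0.96 ± 0.23 (SE). Against KO gastrocnemius, all 4 were called too, at 1.62 for *Gimap4*, 1.34 for *Tm4sf1*, 0.93 for *Cd34* and 0.74 for *Cldn5*. *S1pr1*, the receptor for sphingosine 1-phosphate, came nearest to a call in gastrocnemius, at 8.62 in KO against 7.99 in WT mice, a difference of 0.63 ± 0.16 (SE; adjusted p = 0.087).

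A further list held 8 other capillary genes, some of them for lipid or water handling. Of these, 4 were called higher and 0 lower in KO diaphragm against the arrays labelled WT diaphragm. They were *Lpl* (1.11 ± 0.12, SE), lipoprotein lipase, *Fabp4* (1.04 ± 0.13) and *Cd36* (0.99 ± 0.11), which bind and take up fatty acids, and *Gpihbp1* (0.41 ± 0.11), which anchors LPL on the capillary wall. The adipocyte also expresses *Lpl*, *Fabp4* and *Cd36*, and the part of other cells, muscle fibers included, in these signals was not tested. Against KO gastrocnemius 5 were higher, with *Lpl* at 1.55, *Cd36* at 1.15, *Fabp4* at 0.99 and *Gpihbp1* at 0.33, and *Rgcc* was lower, at −0.85 ± 0.24 (SE; adjusted p = 0.014). The water channel gene *Aqp1* differed by 0.04 ± 0.11 (SE) in the first contrast and by 0.21 ± 0.11 (SE) in the second, with no call. In gastrocnemius none of the 8 was called by limma, and their median was −0.17.

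Of the 6 other VEGF family genes, 5 were called higher in both contrasts with KO diaphragm and 0 in gastrocnemius, where the median was 0.04. *Vegfc*, the ligand of lymphatic growth, had a signal of 7.22, 7.59 and 7.51 in KO diaphragm, against 6.25, 5.88 and 5.96 on the arrays labelled WT diaphragm. Its receptor gene *Flt4* had 7.70, 7.93 and 7.56 in KO diaphragm, against 6.33, 6.26 and 6.41 on the arrays labelled WT diaphragm. Both stood clear of all other arrays, by 1.41 ± 0.13 (SE) for *Vegfc* and 1.40 ± 0.10 (SE) for *Flt4*. The co-receptors *Nrp1* (1.09 ± 0.12, SE) and *Nrp2* (0.81 ± 0.11) and the ligand *Vegfd* (0.47 ± 0.15) were called too. Against KO gastrocnemius, the differences were 1.36 for *Vegfc*, 1.41 for *Flt4*, 1.06 for *Nrp1*, 0.88 for *Nrp2* and 0.66 for *Vegfd*, all called. Placental growth factor, *Pgf*, another ligand of FLT1, was the 1 gene without a call, at 0.26 ± 0.095 (SE; adjusted p = 0.058). In gastrocnemius *Pgf* averaged 6.32 in KO and 5.99 in WT mice, with no overlap and no call (0.33 ± 0.095, SE; adjusted p = 0.12).

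Of 6 angiopoietin pathway genes, 4 were called higher in both contrasts with KO diaphragm. *Angpt1*, the activating ligand of TEK, had a signal of 7.81, 7.30 and 8.38 in KO diaphragm, against 5.86, 5.76 and 5.54 on the arrays labelled WT diaphragm. Its gastrocnemius values were 6.70, 6.84 and 6.74 in KO mice, against 6.33, 6.18 and 6.36 in WT mice. *Angpt1* was higher in KO diaphragm by 2.11 ± 0.19 (SE; adjusted p = 2.2e-06) against the arrays labelled WT diaphragm and by 1.07 ± 0.19 (SE; adjusted p = 7.0e-04) against KO gastrocnemius. All 3 KO gastrocnemius arrays lay above the WT ones, at 0.47 ± 0.19 (SE; adjusted p = 0.24). *Angpt2*, which can oppose ANGPT1 at TEK, was higher in KO diaphragm by 0.50 ± 0.12 (SE) and *Ptprb*, a phosphatase that acts on TEK, by 0.34 ± 0.091 (SE), against the arrays labelled WT diaphragm. Both were also called against KO gastrocnemius, at 0.69 for *Angpt2* and 0.53 for *Ptprb*.

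Among 13 genes of tip cells and Notch signalling, 6 were called higher in KO diaphragm against the arrays labelled WT diaphragm, 9 against KO gastrocnemius, and 0 in gastrocnemius. *Cxcr4*, a chemokine receptor, differed by 1.19 ± 0.26 (SE) in the first of these, the apelin receptor gene *Aplnr* by 0.85 ± 0.18 (SE), *Notch1* by 0.59 ± 0.10 (SE) and apelin, *Apln*, by 0.59 ± 0.096 (SE). All 4 were called against KO gastrocnemius as well, at 1.19 for *Cxcr4*, 1.20 for *Aplnr*, 0.65 for *Notch1* and 0.54 for *Apln*. In gastrocnemius *Apln* had 0.33 ± 0.096 (SE; adjusted p = 0.12) and *Aplnr* −0.47 ± 0.18 (SE; adjusted p = 0.21). The sprouting marker *Esm1* differed by 0.16 ± 0.11 (SE; adjusted p = 0.29) in KO diaphragm against the arrays labelled WT diaphragm and by 0.42 ± 0.11 (SE; adjusted p = 0.0093) against KO gastrocnemius.

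Of 13 genes of the BMP and TGF-beta pathway, in which ENG acts, 6 were called higher and 1 lower in KO diaphragm against the arrays labelled WT diaphragm. Against KO gastrocnemius, 9 were called higher and 0 lower. The shares over all genes were 16.3% and 11.2%, then 17.7% and 11.2%. The gene called lower was *Bmpr2*, a BMP receptor gene, at 9.43 in KO diaphragm against 9.91 on the arrays labelled WT diaphragm. It averaged 9.66 in KO and 9.78 in WT gastrocnemius. *Id1*, a target gene of BMP signalling, was the 1 pathway gene called in gastrocnemius. Its signal was 8.04, 8.16 and 8.10 in KO gastrocnemius, against 7.31, 7.58 and 7.17 in WT gastrocnemius, a difference of 0.75 ± 0.11 (SE; adjusted p = 0.0072). In KO diaphragm it was 8.41, 8.40 and 8.25, against 7.56, 7.57 and 7.74 on the arrays labelled WT diaphragm, a difference of 0.73 ± 0.11 (SE; adjusted p = 1.7e-04). Both KO groups lay above both WT groups. KO diaphragm differed from KO gastrocnemius by 0.25 ± 0.11 (SE; adjusted p = 0.10). *Id2* (1.36 ± 0.16, SE), *Tgfb1* (1.02 ± 0.12) and *Id3* (0.94 ± 0.15) were higher in KO diaphragm against the arrays labelled WT diaphragm, and against KO gastrocnemius by 1.53 for *Id2*, 1.13 for *Tgfb1* and 0.63 for *Id3*.

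Among 14 genes of the hypoxia response and of PGC-1 signalling, 2 routes known to raise *Vegfa* in muscle, 7 were called higher and 2 lower in KO diaphragm against the arrays labelled WT diaphragm. Against KO gastrocnemius 8 were higher and 1 lower. Of all genes, 11.2% were called lower in each contrast, so that the counts of lower genes are near that share. The 2 genes lower in the first contrast were *Arnt* and *Egln2*. *Arnt* averaged 9.08 in KO diaphragm, against 9.49 on the arrays labelled WT diaphragm, and *Egln2* 9.01 against 9.46. *Egln2*, which averaged 9.44 in KO gastrocnemius, was also the gene lower in the second contrast. *Ppargc1a*, which encodes PGC-1alpha, had a signal of 10.57, 9.98 and 9.46 in KO diaphragm, against 9.62, 8.66 and 8.40 on the arrays labelled WT diaphragm. For gastrocnemius, the signal was 8.29, 8.98 and 8.73 in KO mice, against 8.04, 8.01 and 7.94 in WT mice. The first 2 groups overlapped, with a difference of 1.11 ± 0.29 (SE; adjusted p = 0.011), and the KO gastrocnemius arrays all lay above the WT ones. *Esrrb*, a nuclear receptor gene, was higher in KO diaphragm by 1.25 ± 0.16 (SE), *Egln3*, an oxygen-sensing prolyl hydroxylase, by 0.67 ± 0.13 (SE), *Adm*, adrenomedullin, by 0.59 ± 0.11 (SE), and *Hif1a* by 0.43 ± 0.087 (SE), against the arrays labelled WT diaphragm. Against KO gastrocnemius, *Ppargc1a* was higher by 1.33, *Esrrb* by 1.57, *Egln3* by 1.52, *Adm* by 0.45 and *Hif1a* by 0.62, all called. *Epas1*, a hypoxia-inducible factor gene prominent in endothelium, differed in KO diaphragm by 0.11 ± 0.085 (SE, limma adjusted p = 0.39) from the arrays labelled WT diaphragm. From KO gastrocnemius it differed by 0.65 ± 0.085 (SE, limma adjusted p = 5.2e-05). It was also 1 of 3 genes of this list called higher on the arrays labelled WT diaphragm than in WT gastrocnemius, with *Egln3* and *Esrrg*. In gastrocnemius 0 of the 14 were called between KO and WT mice by limma, with a median of 0.06.

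A list drawn up for angiogenesis inhibitors held 8 genes, and whether each acts as one was not tested. In KO diaphragm against the arrays labelled WT diaphragm, *Sema3f* was called higher (0.51 ± 0.14, SE). The matrix protein gene *Thbs4* was called lower (−0.74 ± 0.25, SE, limma adjusted p = 0.042). *Thbs4* also averaged 9.04 in KO against 10.11 in WT gastrocnemius (−1.06 ± 0.25, SE; adjusted p = 0.073). Against KO gastrocnemius 3 of the 8 were higher and 0 lower, with *Sema3f* at 0.78 and *Thbs4* at 0.29, which was not called (adjusted p = 0.43). Against the arrays labelled WT diaphragm, KO diaphragm had 5 of 8 artery, 3 of 6 vein and 6 of 6 lymphatic genes called higher. Against KO gastrocnemius the counts were 6 of 8, 2 of 6 and 6 of 6. Of all genes, 16.3% were called higher and 11.2% lower in the first contrast, and 17.7% and 11.2% in the second. The 1 of 8 inhibitor genes called in each direction is near those shares, and 2 of 6 vein genes is a small count to set beside 17.7%. None of the genes of the inhibitor list or of these vessel lists was called in gastrocnemius by limma, where 0.592% of all genes were called. Some genes stand in more than 1 list, such as *Cxcr4* and *Dll4* among arteries and tip cells and *Flt4* among lymphatics and the VEGF family.

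The lymphatic genes had the larger differences. *Mmrn1*, a secreted protein of lymphatic vessels and platelets, had a signal of 8.16, 8.50 and 8.27 in KO diaphragm, against 4.71, 5.28 and 4.76 on the arrays labelled WT diaphragm, a difference of 3.39 ± 0.20 (SE; adjusted p = 4.0e-08). *Lyve1*, the hyaluronan receptor of lymphatic endothelium, was higher by 1.49 ± 0.17 (SE) and *Reln*, reelin, by 1.33 ± 0.11 (SE). Against KO gastrocnemius the differences were 3.08 for *Mmrn1*, 1.81 for *Lyve1* and 1.69 for *Reln*, all called. The mean signal of the 6 genes was 7.73 to 8.18 in KO diaphragm, against 6.21 to 6.42 on the arrays labelled WT diaphragm, and 6.04 to 6.28 in KO against 6.24 to 6.42 in WT gastrocnemius. Lymphatic endothelium also expresses *Pecam1*, *Cdh5* and *Flt4*, and its part in the signal of the 10 genes was not tested.

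**Figure D4:**
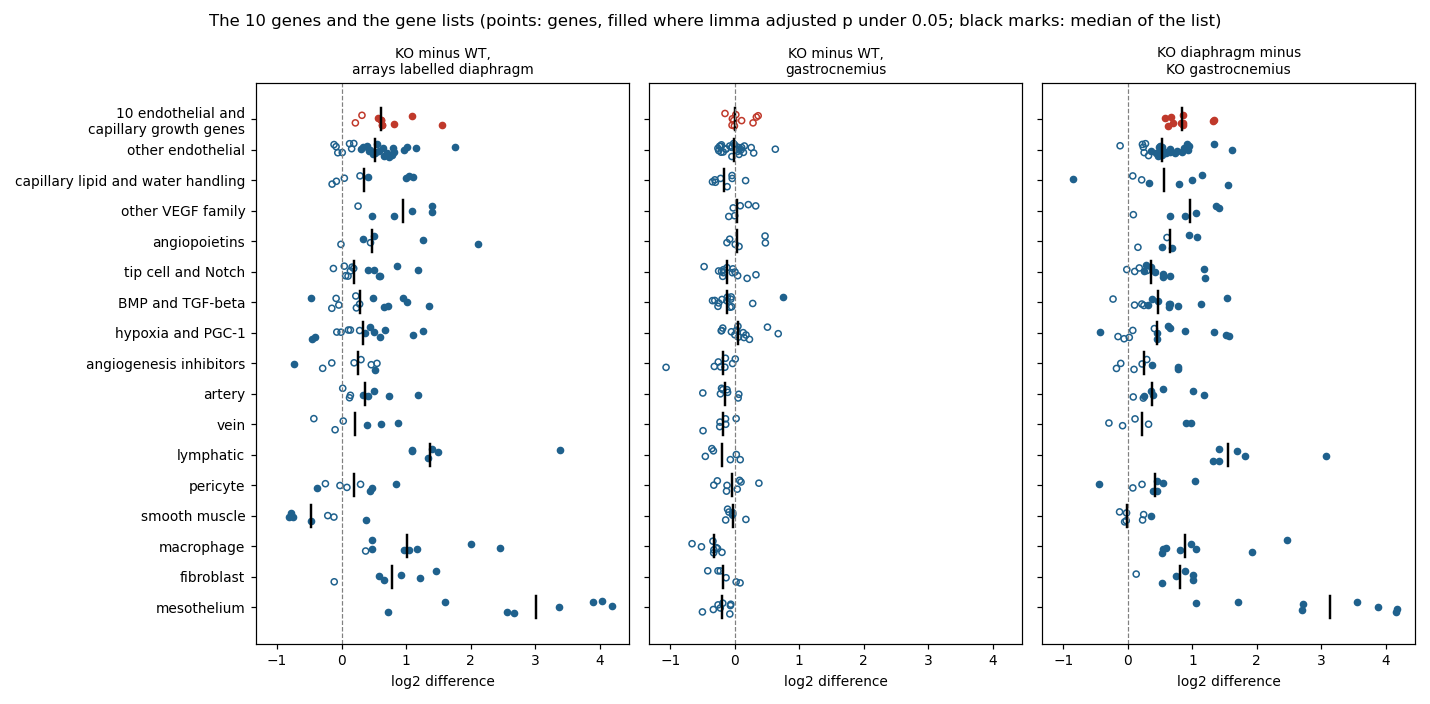
Log2 differences (horizontal axes) of single genes (points, filled where the limma adjusted p is under 0.05) in the 10 genes and 16 lists (rows), with the median of each as a black mark, for KO minus WT on the arrays labelled diaphragm, KO minus WT in gastrocnemius and KO diaphragm minus KO gastrocnemius. The 10 genes have medians of 0.62, 0.01 and 0.84, and the mesothelial genes reach the largest differences, 4.19 and 4.17, in the outer panels.

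Markers of other cells moved with KO diaphragm too. All 8 mesothelial genes were called higher in KO diaphragm in both contrasts, and their mean signal was 7.78 to 8.61 there, against 5.29 to 5.34 on the arrays labelled WT diaphragm, and 5.19 to 5.23 in KO against 5.33 to 5.55 in WT gastrocnemius. Of 8 macrophage genes, 7 were called higher against the arrays labelled WT diaphragm and 8 against KO gastrocnemius, with a mean signal of 7.46 to 7.91 in KO diaphragm, against 6.36 to 6.83 on the arrays labelled WT diaphragm, and 6.42 to 6.63 in KO against 6.72 to 7.09 in WT gastrocnemius. Of 6 fibroblast genes 5 were called higher in each contrast, with means of 9.74 to 10.19 in KO diaphragm, against 9.05 to 9.38 on the arrays labelled WT diaphragm, and 9.23 to 9.34 in KO against 9.23 to 9.82 in WT gastrocnemius. Of 5 adipocyte genes 4 were, with means of 6.50 to 8.43 in KO diaphragm, against 5.84 to 6.15 on the arrays labelled WT diaphragm, and 5.94 to 6.34 in KO against 6.43 to 7.17 in WT gastrocnemius. The part of these cells in the signal of *Vegfa*, *Vegfb* or the endothelial genes was not tested.

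Cells of the vessel wall and of blood differed less. Of all genes, 16.3% were called higher and 11.2% lower in KO diaphragm against the arrays labelled WT diaphragm. Against KO gastrocnemius these shares were 17.7% and 11.2%. Of 8 pericyte genes, 3 were called higher and 1 lower in KO diaphragm against the arrays labelled WT diaphragm, and 5 higher and 1 lower against KO gastrocnemius, with a mean signal of 8.23 ± 0.066 in KO diaphragm, against 8.04 ± 0.060 on the arrays labelled WT diaphragm, and 7.88 ± 0.035 in KO against 7.92 ± 0.059 in WT gastrocnemius (SD, n = 3 each). Of 7 smooth muscle genes, 1 was higher and 4 were lower in the first contrast, among them *Myh11* (−0.82 ± 0.11, SE), *Tagln* (−0.78 ± 0.15) and *Acta2* (−0.75 ± 0.16), and 1 was higher and 0 lower against KO gastrocnemius, where *Myh11* was at −0.13, *Tagln* at −0.05 and *Acta2* at 0.23, with no call. *Acta2* averaged 9.33 in KO diaphragm and 10.09 on the arrays labelled WT diaphragm, with 9.11 in KO and 9.20 in WT gastrocnemius. Between the arrays labelled WT diaphragm and WT gastrocnemius, 2 of the 7 were called higher by limma, with 0.296% of all genes. They were *Acta2* (0.89 ± 0.16, SE, adjusted p = 0.030) and *Myh11* (0.66 ± 0.11, SE, adjusted p = 0.014). The mean of the 7 was 7.39 ± 0.16 in KO diaphragm, against 7.79 ± 0.10 on the arrays labelled WT diaphragm, and 7.30 ± 0.089 in KO against 7.34 ± 0.13 in WT gastrocnemius (SD, n = 3 each). Of 5 platelet genes 2 were higher and 1 lower in the first contrast and 2 higher in the second; of 3 erythroid genes 1 was higher in the first and 2 in the second. None of these 23 genes was called in gastrocnemius by limma, where 0.592% of all genes were called. Means of the platelet genes were 5.61 to 6.18 in KO diaphragm, against 5.56 to 5.63 on the arrays labelled WT diaphragm, and 5.35 to 5.46 in KO against 5.49 to 5.60 in WT gastrocnemius. Those of the erythroid genes were 5.70 to 6.29 in KO diaphragm, against 5.55 to 5.57 on the arrays labelled WT diaphragm, and 5.49 to 5.53 in KO against 5.41 to 5.70 in WT gastrocnemius. The share of these cells in the signal of the 10 genes was not tested.

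The position genes followed the group that stands apart. Of 11 hindlimb genes, 9 were called lower in KO diaphragm against the arrays labelled WT diaphragm and 10 against KO gastrocnemius, and of 6 cervical genes 4 and 5 were called higher. Between the arrays labelled WT diaphragm and WT gastrocnemius 0 of these 17 were called by limma. Only 0.461% of all genes were, so that 0 calls are what most short lists would give. Of 8 fiber type genes, 4 were higher and 2 lower in KO diaphragm in both contrasts, with *Myh7* of slow fibers at 1.42 ± 0.24 (SE) and 1.29 ± 0.24 (SE). The part of fiber type in the signal of the 10 genes was not tested.

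Among 9959 genes at or above the median signal, those whose pattern over the 12 arrays lay nearest to the mean of the 8 endothelial genes, by the root mean square distance of gene-centred log2 values, were *Pmm2* (0.057), *Gramd1a* (0.071), *Cxcl12* (0.073), *Elk3* (0.073), *Arap3* (0.075) and *2210016F16Rik* (0.087). *Cxcl12* is a chemokine and the ligand of CXCR4, *Elk3* an ETS factor and *Pmm2* an enzyme of protein glycosylation. Nearest to *Vegfa* were *Stab1* (0.16), a scavenger receptor of macrophages and sinusoidal endothelium, *Gas6* (0.17) and *Wdr1* (0.18), and nearest to *Vegfb* were *Adk* (0.087), *Ccnd1* (0.091) and *Cxcl12* (0.095). *Pmm2* differed by 0.66 in KO diaphragm against the arrays labelled WT diaphragm, by 0.91 against KO gastrocnemius and by 0.03 in gastrocnemius.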

How the data were processed

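RNA of 4 groups was hybridised to 12 Affymetrix mouse arrays of the Gene 1.0 ST design, 3 a group. The deposited values are log2 signals that the authors made with RMA in Affymetrix Expression Console, per the labels; the versions are not given in the sources used here. RMA corrects background, normalizes between arrays and summarises probes, so that a real shift of most genes would be removed. Values ranged from 1.65 to 14.4, and no columns were identical. Of 35556 probe sets, 21789 carried 1 gene symbol, 1621 several and 12146 none; the last 2 kinds were left out, and the brightest probe set stood for each of 19938 genes. limma 3.58.1 in R 4.3.3 (lmFit, eBayes) fitted 1 model of 4 group means without covariates, and p-values were adjusted over all genes by Benjamini-Hochberg, with a threshold of 0.05; the median residual SD was 0.138. Exact permutation tests compared 3 arrays with 3. The limma p-values set differences between groups against the spread between samples within groups, pooled over the 4 groups and moderated over genes.

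The 10 genes and all lists were chosen with earlier results of these data known. Named genes were the 10 and the check genes *Cox6a2*, *Hoxc10*, *Upk3b* and *Myh4*. Per list and comparison, up to 4 called genes with the largest differences were also named, or, with no call, the 2 of smallest p. *Aqp1*, *Vegfd*, *Pgf*, *Esm1*, *Hif1a*, *Epas1*, *Dll4*, *Arnt* and *Bmpr2* were added after their values were seen where this rule did not take them. Genes listed without a value, such as *Angptl2*, *Vash1* and *Selp*, were left out. The model was tested on simulated data. Alternatives were each pair of groups alone, median centring, quantile normalization, a filter on dim genes, the replicate block (statmod 1.5.0), trended and robust eBayes, the mean of all probe sets, leaving out each array or the arrays labelled WT diaphragm, and the methods' t-test.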

Additional observations from a re-analysis of the deposited data

Results flagged for a closer look

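For 7 of the 10 genes, the difference of KO from WT on the arrays labelled diaphragm was itself different from that in gastrocnemius, by the interaction in limma at an adjusted p under 0.05. Of all genes, 8.76% were called with a positive interaction. The interaction on the log2 scale was 1.19 for *Kdr*, 0.56 (0.564) for *Tie1*, 0.62 (0.619) for *Pecam1*, 0.59 (0.591) for *Cdh5*, 0.53 (0.527) for *Esam*, 0.76 (0.762) for *Vegfa* and 0.52 (0.517) for *Vegfb*. All 7 were larger on the arrays labelled diaphragm. They use the arrays labelled WT diaphragm, so that genotype and muscle cannot be told apart in them. The calls of *Vegfb* and *Vegfa* were lost when some single arrays were left out. Those of *Vegfb* and *Esam* were lost under median centring, and that of *Vegfb* also with a random replicate block.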

How the results depend on the processing

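The counts of the 10 genes called higher changed by more than 1.5 times under 2 kinds of alternative only. With the methods' t-test after Benjamini-Hochberg adjustment, 4 were called in KO diaphragm against the arrays labelled WT diaphragm (*Tie1*, *Pecam1*, *Esam* and *Vegfa*), against 8 with limma; before adjustment it called 1 in gastrocnemius and 2 between the WT groups, against 0 each. When 1 array was left out, the count ranged from 7 to 9 in KO diaphragm against the arrays labelled WT diaphragm, from 5 to 7 for the interaction and from 0 to 1 between the WT groups; it was 10 throughout for KO diaphragm against KO gastrocnemius and 0 throughout in gastrocnemius. Without the arrays labelled WT diaphragm, these last counts were again 10 and 0. *Tek* was called in KO diaphragm against the arrays labelled WT diaphragm with trend and robust (adjusted p = 0.045) and among genes at or above the median signal (adjusted p = 0.035). The interaction lost *Esam* (0.39) and *Vegfb* (0.38) under median centring.

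Directions turned where differences were small. In gastrocnemius, median centring gave *Tek* 0.0214, *Tie1* 0.0535, *Eng* 0.0164 and *Pecam1* 0.0434, and quantile normalization gave *Cdh5* −0.0470. Leaving out 1 array gave ranges of −0.113 to 0.0457 for *Tek*, −0.0379 to 0.0616 for *Tie1*, −0.110 to 0.0390 for *Eng*, −0.0531 to 0.0388 for *Pecam1* and −0.0274 to 0.0525 for *Cdh5* there, and of −0.0368 to 0.416 for *Kdr* between the WT groups. Relative to the median of the 28 endothelial genes in place of their mean, *Vegfb* in gastrocnemius was at −0.000541, *Tie1*, *Pecam1* and *Cdh5* turned to −0.0858, −0.0411 and −0.0366 in KO diaphragm against the arrays labelled WT diaphragm, and *Cdh5* in gastrocnemius turned to −0.0904. *Eng* and *Vegfb* turned to −0.0240 and −0.0215 in KO diaphragm against the arrays labelled WT diaphragm, and *Pecam1*, *Tie1* and *Eng* moved further below 0 in gastrocnemius (−0.122, −0.112 and −0.149). With the mean subtracted as before, quantile normalization turned *Cdh5* to −0.0136 in gastrocnemius and *Flt1* to 0.0275 in KO diaphragm against KO gastrocnemius.

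The groups share replicate numbers, but nothing says that these mark the same mouse, and same-numbered arrays deviated together at correlations of −0.070 to 0.148 only. With the replicate block as a fixed effect 9 of the 10 genes were called in KO diaphragm against the arrays labelled WT diaphragm (*Tek* was added), and with a random block (correlation −0.0343) 8; for the interaction the counts were 7 and 6, and the other counts did not change.

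The split of all genes moved with the scaling. In KO diaphragm against the arrays labelled WT diaphragm 3258 genes were higher and 2238 lower, against 2667 and 3836 after median centring and 2812 and 2863 after quantile normalization. Against KO gastrocnemius the numbers were 3535 and 2232, 2389 and 4323, and 2798 and 2828. For the interaction they were 1747 and 1211, 1225 and 2291, and 1507 and 1414. In gastrocnemius 81 and 37 became 188 and 29 with median centring, and between the WT groups 59 and 33 became 40 and 40 with quantile normalization. Median centring moved the median of all genes to −0.118, −0.111 and −0.134 in the first 3 of these, and the 10 genes stayed above 0 in all of them.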
